A study of Mus musculus with 6 samples.

Results

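The miR-200 family was followed in small RNA libraries from male mouse hearts as 5 mature miRNAs: mmu-miR-200c-3p, mmu-miR-200b-3p, mmu-miR-200a-3p, mmu-miR-141-3p and mmu-miR-429-3p. They were found by name among 2009 names in the deposited table, and all 5 were listed. The family was chosen by earlier readouts of the same contrast, in which miR-200b-3p had separate groups and the members were scarce, so their levels in the 2 groups are described here and no test is given for them. The study compared 3 hearts after ischemia and reperfusion (I/R) with 3 sham hearts. Every heart was isolated and perfused through the aorta on a Langendorff system; in the I/R group Tomas cardioplegia, a solution that stops contraction, halted the beat for 30 min, and 1 h of reperfusion followed, whereas sham hearts went on beating. All hearts came from males; strain, age and genotype are not given in the labels.

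miRNAs are short RNAs that guide silencing proteins to mRNAs, and pairing rests mainly on the seed, bases 2 to 8 of the mature strand. The miR-200 family is best known for holding epithelial cells in their epithelial state: its members repress Zeb1 and Zeb2, transcription factors that drive epithelial-to-mesenchymal transition, and Zeb1 and Zeb2 in turn repress the miRNA genes. Heart muscle, endothelium and fibroblasts are not epithelia, and the family is regarded as low in them.

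The mature 3p strands are shown because the family divides by them into 2 seed groups; capitals mark the seed, and the sequences are RefSeq's on GRCm38, the build that the labels call mm10.
miR-200b-3p: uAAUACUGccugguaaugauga
miR-200c-3p: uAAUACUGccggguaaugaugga
miR-429-3p: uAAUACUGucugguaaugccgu
miR-200a-3p: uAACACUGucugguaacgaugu
miR-141-3p: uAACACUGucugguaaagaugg
The first 3 share one seed and the last 2 another, and no other RefSeq mouse miRNA carries either. Counted from 1 at the 5′ end, miR-200b-3p and miR-200a-3p differ by U4C, in the seed, and by C9U, U17C and A22U. miR-200c-3p and miR-200b-3p differ over 22 bases by G11U and G22A, and miR-200a-3p and miR-141-3p by C17A and U22G. No source used here says how reads that match 2 such names were counted, so the split within these close pairs is uncertain.

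Seed groups and genome clusters do not coincide. The hairpins of miR-200b, miR-200a and miR-429 follow each other in this order within 1846 bases on the minus strand, at chr4:156055681-156055750, chr4:156054896-156054985 and chr4:156053905-156053987. All 3 lie in an intron of Ttll10 on the same strand, and in the noncoding transcript Gm13648, where miR-429 overlaps an exon (GENCODE M21). Those of miR-200c and miR-141 lie within 477 bases on the minus strand, at chr6:124718322-124718390 and chr6:124717914-124717985, in an intron of the noncoding Gm15884. The nearest protein-coding gene is Phb2, on the other strand, 1372 and 964 bases away. The miR-200b and miR-200a hairpins are printed because the results turn on these neighbours; capitals mark the 3p strand.
miR-200b hairpin: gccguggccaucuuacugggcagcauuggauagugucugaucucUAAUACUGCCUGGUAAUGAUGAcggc
miR-200a hairpin: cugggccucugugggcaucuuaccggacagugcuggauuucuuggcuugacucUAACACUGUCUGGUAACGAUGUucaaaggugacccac

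Depth, recovered as whole reads from the deposited values, was 7874103 to 8196102 reads in I/R and 8099411 to 9197869 in sham libraries, and levels are given as reads per 1000000 of these (RPM). One read was worth 0.122 to 0.127 RPM in I/R and 0.109 to 0.123 RPM in sham hearts. Markers of the labelled tissue were present: the heart and skeletal muscle miRNA miR-1a-3p held 351573 to 375821 RPM in I/R and 378281 to 382877 RPM in sham hearts, and miR-208a-3p, hosted by the cardiac myosin gene Myh6, 147 to 169 RPM in I/R and 162 to 181 RPM in sham hearts. Against these the family was rare. Its 5 members together gave 591 reads in 6 hearts, or 11.7 ± 1.53 RPM (SD, n = 6), and every statement below rests on such counts. All intervals cover counting error only and leave out differences between hearts, also where reads are summed over a group. No source describes the collapsing of reads to molecules, so counting error itself may be larger than they show.

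miR-200c-3p, a chromosome 6 member that targets Zeb1, was the most abundant of the family and ranked 253 among all names by mean level. It gave 64, 55 and 62 reads in I/R hearts (7.81, 6.73 and 7.87 RPM), and 77, 50 and 59 reads in sham hearts (8.37, 5.65 and 7.28 RPM). The I/R values lay inside the range of the sham values. The means were 7.47 ± 0.65 RPM in I/R and 7.10 ± 1.37 RPM in sham hearts (SD, n = 3 each), and the log2 fold change was 0.08 (SE 0.18). Its sign turned under other scalings of the libraries, from 0.08 to -0.02 with median-ratio scaling and to -0.05 in edgeR.

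miR-200b-3p, the first hairpin of the chromosome 4 cluster and likewise a repressor of Zeb1 and Zeb2, was second at rank 336. It gave 22, 26 and 25 reads in I/R hearts (2.68, 3.18 and 3.17 RPM), and 18, 12 and 14 reads in sham hearts (1.96, 1.36 and 1.73 RPM). Every I/R heart lay above every sham heart, which is the readout the family was picked for. The means were 3.01 ± 0.28 RPM in I/R and 1.68 ± 0.30 RPM in sham hearts (SD, n = 3 each), with a log2 fold change of 0.59 (SE 0.19) on log2(RPM + 1), a scale that understates changes of scarce miRNAs. Summed reads were 73 in I/R and 44 in sham hearts, a depth-corrected ratio of 1.79 with an exact 95% counting interval of 1.21 to 2.66. By replicate number the I/R heart was higher by 0.32, 0.83 and 0.61 on the log2 scale.

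miR-200a-3p, from the hairpin next to miR-200b and with the other seed, ranked 369 and lay on the opposite side. It gave 12, 11 and 8 reads in I/R hearts (1.46, 1.35 and 1.02 RPM), and 20, 13 and 14 reads in sham hearts (2.17, 1.47 and 1.73 RPM). Every I/R heart lay below every sham heart, but only by a gap smaller than 1 read is worth: the highest I/R heart stood at 1.464 RPM and the lowest sham heart at 1.469 RPM. The means were 1.28 ± 0.23 RPM in I/R and 1.79 ± 0.36 RPM in sham hearts (SD, n = 3 each), with a log2 fold change of -0.29 (SE 0.21). The depth-corrected ratio of summed reads, 31 in I/R and 47 in sham hearts, was 0.711 (exact 95% counting interval 0.437 to 1.14). As the members were picked with this contrast known, neither this interval nor that of miR-200b-3p is read as a test.

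The remaining members were near the limit of detection, which a count of 3 reads puts at 0.366 to 0.381 RPM in I/R and 0.326 to 0.370 RPM in sham hearts. miR-141-3p, encoded beside miR-200c, gave 2, 5 and 3 reads in I/R and 4, 3 and 4 reads in sham hearts, or 0.412 ± 0.186 RPM and 0.423 ± 0.078 RPM (SD, n = 3 each). The ratio of its summed reads was 0.98 (exact 95% counting interval 0.373 to 2.54). miR-429-3p, the last hairpin of the chromosome 4 cluster, gave 3, 2 and 0 reads in I/R and 1, 0 and 2 reads in sham hearts. With 5 and 3 summed reads its ratio was 1.80 (exact 95% counting interval 0.35 to 11.6). These counts settle neither the direction nor the size of a difference. The fit across names kept those that averaged 1 RPM or more and were above 0 in at least 3 libraries, and 3 of the 5 members passed: miR-200a-3p, at 1.53 RPM over all hearts, was the lowest member kept and miR-141-3p, at 0.417 RPM, the highest left out.

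**Figure D1:**
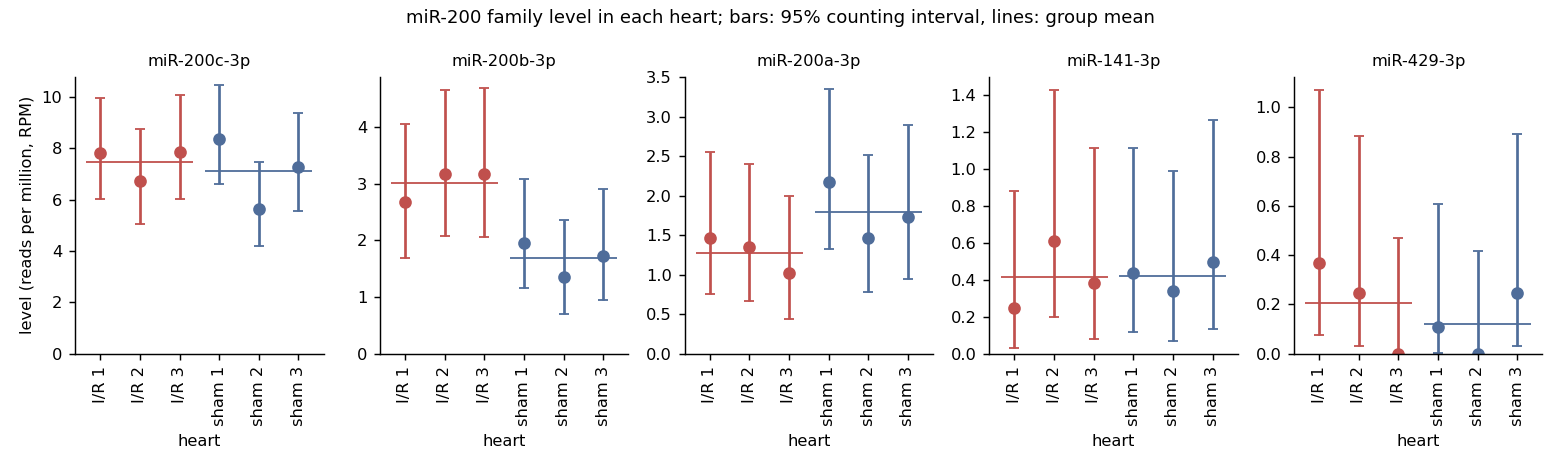
Level of each family member (RPM, linear axes that start at 0 and differ between panels) in the 3 I/R hearts and the 3 sham hearts, with exact 95% Poisson counting intervals as bars and group means as lines. miR-200b-3p lay at 2.68 to 3.18 RPM in I/R and 1.36 to 1.96 RPM in sham hearts, and miR-200a-3p at 1.02 to 1.46 RPM and 1.47 to 2.17 RPM.

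Separate groups were not rare in the table. Of the 409 names kept, 46 lay higher in every I/R heart than in any sham heart (11.2%) and 16 lower (3.91%); among the 3 members kept, miR-200b-3p was one of the 46 and miR-200a-3p one of the 16. Since the family was picked with this contrast known, nothing is read from these counts. No name passed limma with Benjamini-Hochberg adjustment over all names at a threshold of 0.05 (0 of 409, or 0%), with 30 at an unadjusted p under 0.05 (11 without I/R replicate 3); edgeR called 0 with 26 at that level and DESeq2 called 2. With the replicate number as a block, limma called 4 names (0.978%), and no member was among any of these calls. The median log2 fold change over all kept names was 0.10, against which the members' values stand, and -0.007 in edgeR. miR-200b-3p lay higher and miR-200a-3p lower in every I/R heart than in any sham heart under each of the 4 scalings of the libraries, the main one included. The scalings moved the values little: for miR-200b-3p the lowest I/R heart stood at 2.65 to 2.71 RPM and the highest sham heart at 1.96 to 2.11 RPM. As miR-200b-3p was picked for its separate groups, nothing is read from this.

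The order of the levels was miR-200c-3p, miR-200b-3p, miR-200a-3p, miR-141-3p and miR-429-3p, and neighbours were compared within hearts by a two-sided exact permutation test with sign flips. miR-200c-3p exceeded miR-200b-3p by 4.94 ± 1.00 RPM (SD of the difference, n = 6) in 6 of 6 hearts, with exact p = 0.0312, the smallest that 6 hearts allow, and 0.0625 after Benjamini-Hochberg adjustment over the 4 neighbour pairs. miR-200a-3p exceeded miR-141-3p by 1.12 ± 0.40 RPM in 6 of 6 hearts, with the same exact p and adjusted p. miR-141-3p exceeded miR-429-3p by 0.256 ± 0.191 RPM in 5 of 6 hearts (exact p = 0.0625, adjusted p = 0.0833). No neighbour pair therefore passed after adjustment. A pair at the smallest p can pass only where most of the 4 pairs reach it, whatever the size of its difference. No conclusion on the order is drawn from this. For miR-200b-3p and miR-200a-3p the same test over all 6 hearts gave exact p = 0.25 and adjusted p = 0.25. The mean of miR-200b-3p minus miR-200a-3p was 1.74 RPM in I/R hearts, positive in 3 of 3. In sham hearts it was -0.11 RPM, positive in 0 of 3, from 18 and 20, 12 and 13, and 14 and 14 reads. This group difference rests on the values that miR-200b-3p was picked for, so nothing is read from it.

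The groups overlapped in the family's summed level but not in the shares of its 3 most abundant members. The sum stood at 12.6, 12.1 and 12.4 RPM in I/R and 13.0, 8.82 and 11.5 RPM in sham hearts, with overlapping groups. The means were 12.4 ± 0.24 RPM and 11.1 ± 2.14 RPM (SD, n = 3 each). The difference of 1.26 RPM was 0.108 RPM without sham replicate 2, the lowest heart, and 2.22 RPM without sham replicate 1. It was 0.372 RPM with median-ratio scaling, 0.597 RPM with TMM scaling and 0.674 RPM with totals taken without the 10 most abundant names. The chromosome 6 members together stood at 7.34 to 8.25 RPM in I/R and 5.99 to 8.81 RPM in sham hearts, and the chromosome 4 members at 4.19 to 4.77 RPM and 2.83 to 4.24 RPM; both ranges overlapped. These are bulk libraries, in which fewer cells of a type and less RNA per cell cannot be told apart.

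Within the family's reads, miR-200b-3p took 21.4%, 26.3% and 25.5% in I/R hearts and 15.0%, 15.4% and 15.1% in sham hearts. miR-200a-3p took 11.7%, 11.1% and 8.16% in I/R hearts and 16.7%, 16.7% and 15.1% in sham hearts. The first share was higher and the second lower in every I/R heart. The shares of a heart are parts of the same whole, so a higher share of miR-200b-3p lowers the rest. As miR-200b-3p was picked for its separate groups, nothing is read from group differences in the shares of members, seed groups or clusters. miR-200c-3p, the largest part, took 62.1%, 55.6% and 63.3% in I/R hearts and 64.2%, 64.1% and 63.4% in sham hearts, with no overlap but a gap smaller than 1 read makes. By seed, the group of miR-200b, miR-200c and miR-429 took 86.4%, 83.8% and 88.8% in I/R and 80.0%, 79.5% and 80.6% in sham hearts. Summed over hearts this was 259 of 300 reads in I/R (86.3%, exact 95% interval 81.9% to 90.01%) and 233 of 291 reads in sham hearts (80.1%, 75.01% to 84.5%). By locus, the chromosome 4 cluster took 36.3% (30.9% to 42.1%) in I/R and 32.3% (27.0% to 38.0%) in sham hearts.

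**Figure D2:**
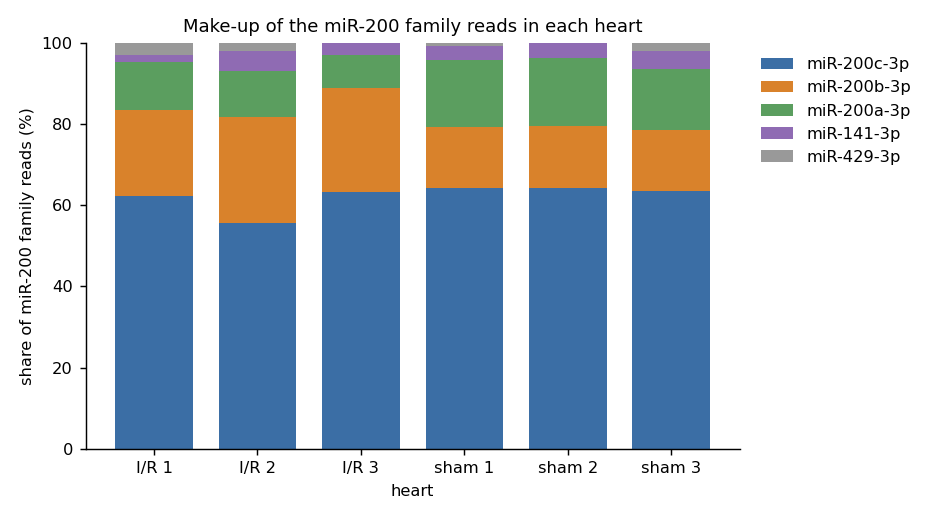
Share of the family's reads (%) held by each member in the 3 I/R hearts and the 3 sham hearts; each bar sums to 100% of 78 to 120 reads. The miR-200b-3p part is 21.4% to 26.3% in I/R and 15.0% to 15.4% in sham hearts, and the miR-200a-3p part 8.16% to 11.7% and 15.1% to 16.7%.

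The ratio of miR-200b-3p to miR-200a-3p needs no scaling between libraries, since both are read from the same library. It was 1.83, 2.36 and 3.12 in I/R hearts and 0.90, 0.923 and 1.00 in sham hearts. In each I/R heart miR-200b-3p was the larger, and in no sham heart. As log2 ratios the means were 1.25 ± 0.38 and -0.09 ± 0.08 (SD, n = 3 each), a difference of 1.34. Of the summed reads of this pair, miR-200b-3p held 73 of 104 in I/R hearts (70.2%, exact 95% interval 60.4% to 78.8%) and 44 of 91 in sham hearts (48.4%, 37.7% to 59.1%). The intervals of single hearts were wide, 46.5% to 80.3% in I/R replicate 1 and 30.6% to 69.4% in sham replicate 3, and overlapped. As miR-200b-3p was picked for its separate groups, nothing is read from the group difference of this ratio or from the summed intervals.

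These shares varied less between the hearts of a group than counting error would give. The share of miR-200b-3p among the family's reads had an SD of 2.64 percentage points between I/R hearts and 0.208 between sham hearts, while counting error for these reads is 4.29 points in I/R and 3.69 points in sham hearts. For miR-200b-3p among the reads of its pair with miR-200a-3p, the SD was 5.53 points in I/R and 1.37 points in sham hearts, against counting errors of 7.78 and 9.22 points. For these shares, over 3 hearts a group, counting error was the larger value. The choice of miR-200b-3p for its separate groups favours a small spread within groups, so nothing is read from this closeness. The family's summed level, with SDs of 0.24 RPM in I/R and 2.14 RPM in sham hearts, showed no such closeness among sham hearts.

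Ratios of names from neighbouring hairpins elsewhere in the table are given as background. They were computed after the miR-200 ratio was seen. There were 95 pairs of kept names whose hairpins lie within 10 kb on the same strand, taking for each hairpin the more abundant of the kept arms that the RefSeq table lists, and names with 1 locus there, and 77 names took part, some in several pairs. The log2 ratio, with 0.5 reads added to each name, had separate groups in 7 pairs (7.37%), and in 2 pairs (2.11%) both names had separate groups in opposite directions. miR-200b-3p with miR-200a-3p is counted in both. Its choice for the separate groups of miR-200b-3p favours that and a large difference of the ratio, so nothing is read from its place among the pairs. On this scale the difference was 1.30 for the miR-200 pair, whose scarcer name had 78 reads in all, and the median absolute difference over the 95 pairs was 0.18. miR-29b-2-5p with miR-29c-5p, named after its values were seen and with 77 reads on the scarcer name, stood at 0.89 with overlapping groups.

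**Figure D3:**
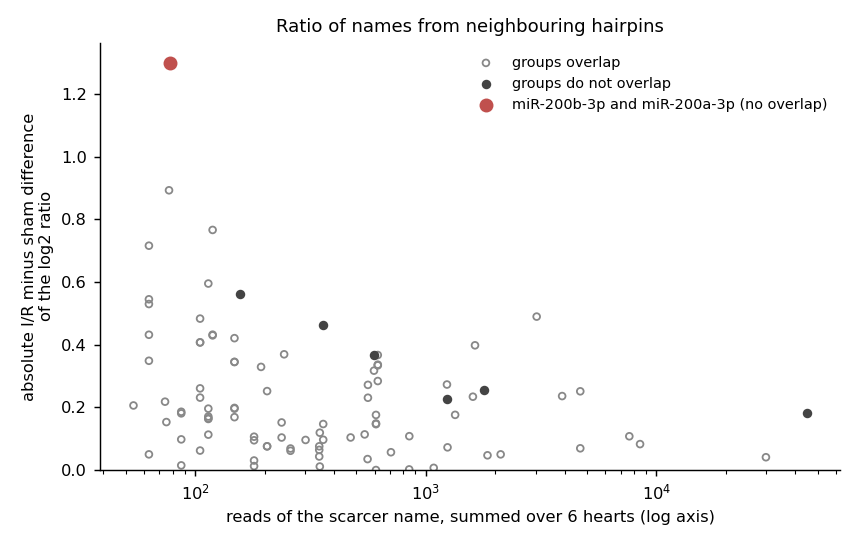
Absolute I/R minus sham difference of the log2 ratio for 95 pairs of names from neighbouring hairpins, against the reads of the scarcer name summed over 6 hearts (log axis); filled points are pairs whose groups do not overlap. The miR-200b-3p and miR-200a-3p pair, picked for the separate groups of miR-200b-3p, lies at 1.30 with 78 reads on its scarcer name.

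The opposite arms of the hairpins, which the choice of members did not use, gave 9 of 600 reads (1.5%, 95% Wilson interval 0.79% to 2.83%). miR-200a-5p held 8 of these: 1, 0 and 4 reads in I/R hearts and 0, 2 and 1 in sham hearts, so the groups overlapped. That is 9.30% of the reads of its hairpin (Wilson interval 4.79% to 17.3%). miR-200b-5p gave 1 read, in I/R replicate 1, or 0.847% of its hairpin (0.15% to 4.64%). The 5p arms of miR-200c, miR-141 and miR-429 had 0 of 367, 0 of 21 and 0 of 8 reads, which allow shares of up to 0.817%, 14.3% and 37.5% by the limit of 3 counts of each total (Wilson upper limits 1.04%, 15.5% and 32.4%). No 5p arm passed the filter on low values.

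Across the 6 hearts miR-200b-3p followed neither of the other kept members closely. Pearson's r of log2(RPM + 1), given as a description over 6 libraries in 2 groups, was -0.58 with its cluster neighbour miR-200a-3p and 0.45 with miR-200c-3p, and 0.22 between miR-200c-3p and miR-200a-3p. Of 406 other kept names, the 3 most like miR-200b-3p over these libraries were miR-1306-3p (r = 0.99), miR-488-3p (0.96) and miR-676-5p (0.95). miR-1306-3p, another scarce name, had 3.54, 3.91 and 3.94 RPM in I/R hearts and 2.61, 2.26 and 2.47 RPM in sham hearts. miR-488-3p stood at 3.67 ± 0.12 RPM and 2.59 ± 0.20 RPM, and miR-676-5p at 110.2 ± 10.6 RPM and 90.5 ± 4.45 RPM (SD, n = 3 each, I/R and sham). All 3 had separate groups, which the likeness to miR-200b-3p favours.

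Other miRNAs known from epithelia and secretory tissue were described name by name, with no test of the list. Of 13 such names 10 were kept, and in limma with adjustment over all names 0 passed in either direction, where 0 of all 409 names passed (0%), with adjusted p of 0.661 to 0.948 and 0 at an unadjusted p under 0.05; edgeR and DESeq2 also called 0. Fold changes were positive for 9 of the 10, as for 287 of all 409, and their median was 0.13 beside 0.10 over all kept names. With median-ratio scaling 8 of the 10 were positive. The median over all kept names was 0.005 there, and positive names among all kept were not counted under that scaling. None of the 10 had separate groups, where 46 of all 409 lay higher in I/R (11.2%) and 16 lower (3.91%). With so few names, nothing is read from this. The kidney and gut miRNA miR-192-5p was far above the miR-200 family, at 3009 ± 290 RPM in I/R and 2726 ± 96.0 RPM in sham hearts (log2 fold change 0.14, SE 0.09). Its genomic partner miR-194-5p stood at 40.0 ± 4.34 RPM and 36.7 ± 2.09 RPM, and the seed relative miR-215-5p at 39.6 ± 7.91 RPM and 36.0 ± 1.03 RPM.

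The skin miRNA miR-203-3p, a repressor of p63 in the epidermis, was at 63.8 ± 7.34 RPM in I/R and 56.8 ± 2.66 RPM in sham hearts (log2 fold change 0.16, SE 0.13). miR-34c-5p, abundant in ciliated cells and testis, was at 43.6 ± 7.999 RPM and 33.1 ± 12.9 RPM (0.46, SE 0.29), and miR-34b-5p from the same transcript at 1.49 ± 0.48 RPM and 1.22 ± 0.77 RPM (0.21, SE 0.30). The sensory-cell cluster gave miR-183-5p at 6.37 ± 1.26 RPM and 5.63 ± 0.26 RPM and miR-182-5p at 7.03 ± 1.44 RPM and 6.80 ± 1.74 RPM, levels like that of miR-200c-3p. miR-31-5p, the one negative name, was at 3.67 ± 0.21 RPM and 4.195 ± 1.08 RPM (-0.13, SE 0.20), and the islet miRNA miR-375-3p at 1.25 ± 0.77 RPM and 0.99 ± 0.31 RPM (0.13, SE 0.30). The names below the filter were miR-449a-5p with 12 reads in all, and miR-205-5p and miR-96-5p with 4 each. Of these, miR-449a-5p and miR-96-5p lay higher in every I/R heart than in any sham heart. miR-96-5p stood at 0.122 to 0.127 RPM in I/R and 0 to 0.113 RPM in sham hearts, no more than a read is worth.

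Markers of cell types that could add epithelial RNA are given beside the miR-200b-3p difference. The skin names summed to 56.4 to 70.9 RPM in I/R and 53.8 to 58.9 RPM in sham hearts, the ciliated airway names to 36.8 to 53.2 RPM and 18.8 to 43.9 RPM, the endocrine name stood at 0.488 to 2.03 RPM and 0.678 to 1.30 RPM, and the gut and kidney names summed to 2760 to 3279 RPM and 2696 to 2887 RPM. Each of these ranges overlapped. Of the 9 names, miR-449a-5p alone had separate groups, at 0.61, 0.367 and 0.127 RPM in I/R and 0.109, 0.113 and 0.123 RPM in sham hearts, where the lowest I/R heart and all sham hearts had 1 read. miR-205-5p, which marks stratified epithelium, was at 0 in 1 I/R and 2 sham hearts. The liver miRNA miR-122-5p was higher in every I/R heart, at 3.90, 3.67 and 4.32 RPM, against 3.48, 3.05 and 3.58 RPM in sham hearts. The 4 heart muscle names summed to 357828 to 383230 RPM in I/R and 385458 to 389856 RPM in sham hearts, lower in every I/R heart. Nearly all of this was miR-1a-3p, and the groups of miR-133a-3p, miR-208a-3p and miR-499-5p overlapped. The means of miR-133a-3p and miR-208a-3p were lower in I/R hearts, and that of miR-499-5p was higher (5679 RPM against 5602 RPM in sham hearts). The part of these in the miR-200b-3p difference was not tested.

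**Figure D4:**
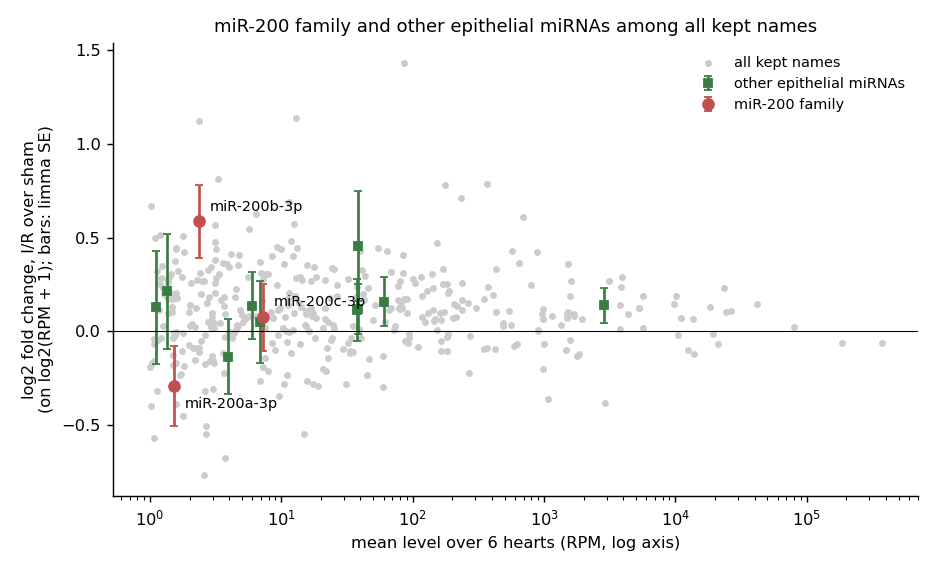
Log2 fold change of I/R over sham on log2(RPM + 1) against the mean level over 6 hearts (RPM, log axis) for 409 kept names, with limma's SE as bars for the 3 kept members and the 10 kept names of the epithelial list. miR-200b-3p lies at 0.59, miR-200c-3p at 0.08 and miR-200a-3p at -0.29, and the other epithelial names lie between -0.13 and 0.46.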

How the data were processed

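Per the labels, 3 I/R and 3 sham mouse hearts were profiled; the library protocol given names mRNA kits, while titles say miRNA-seq. The submitters' processing notes name mm10, fastp 0.23.0 and bcl2fastq 2.19.1.403; the aligner and the miRNA annotation are not given there. The deposited signal, called FPKM in the table's name, has equal column totals, and 100% of values were whole multiples of each column's smallest value (tolerance 0.01 reads). Whole reads were recovered by that step. Replicates of a group differed beyond sampling noise (chi-square 34.7 to 138 per degree of freedom). The labels call them biological replicates.

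limma 3.58.1 (R 4.3.3, mean-variance trend) was run on log2(RPM + 1) for all 409 kept names with Benjamini-Hochberg adjustment. Alternatives were edgeR 4.0.16 and DESeq2 1.42.0 on recovered reads. Checks on simulated data ran limma with median-ratio scaling. They used larger changes, in names more abundant than miR-200b-3p and miR-200a-3p, so they do not cover these members. The design had been written for FPKM; its log-scale test was kept. Members, lists and tests were chosen with earlier results of these data known. Named were the members, their 5p arms, the epithelial list, cell type markers and the 3 names most correlated with miR-200b-3p. The main fit had no pairing. Replicate numbers were taken as pairs only for the replicate block and the miR-200b-3p differences by number. Deviations from group means correlated at 0.14, 0.28 and 0.16 for same-numbered libraries and at -0.19 to 0.07 for the others. Such deviations are tied to each other within a group, so these values do not settle whether the hearts were paired. No label says what a number marks. Alternatives were the pseudocount, the filter, median-ratio and TMM scaling, totals without the 10 most abundant names, the replicate block and each library left out.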

Additional observations from a re-analysis of the deposited data

How the results depend on the processing

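miR-200b-3p was higher and miR-200a-3p lower in I/R hearts under each of the 16 alternatives run for them. With separate groups, leaving out a library or changing the pseudocount could not turn the sign. The filter and the replicate block left both estimates as they were. Nothing is therefore read from the number of alternatives with the same sign. The size depended on the scale: for miR-200b-3p the log2 fold change was 0.82 with a pseudocount of 0.1 RPM, 0.16 with 10 RPM and 0.74 in DESeq2, and for miR-200a-3p -0.064 with 10 RPM, -0.60 in edgeR and -0.59 in DESeq2. For miR-429-3p it was 0.38 with 0.1 RPM. miR-200c-3p was positive in 12 of 16 alternatives and miR-141-3p in 2 of 14. Leaving out each library in turn gave 0.50 to 0.66 for miR-200b-3p, -0.38 to -0.20 for miR-200a-3p and 1.15 to 1.53 for their log2 ratio. The family sum differed by 0.11 to 2.22 RPM, and the neighbour pairs past the threshold were 0 throughout, where 5 hearts cannot reach it. The count of called names, 0 as reported, was 1 without a filter, 2 in DESeq2, 4 with the replicate block and 0 to 1 with a library left out (1 without sham replicate 2); the epithelial list had 0 calls with the block and under the other alternatives. Counts of 0 to 77 reads per member and library limit every value.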
